A study of Mus musculus with 9 samples.

Results

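The small proline-rich (Sprr) genes were followed in whole ear skin of mice treated with anisomycin, imiquimod or vehicle. The 9 genes described are Sprr1a, Sprr1b, Sprr2b, Sprr2d, Sprr2e, Sprr2f, Sprr2h, Sprr2i and Sprr3, out of 19938 genes that the arrays measured through a probe set annotated with a single gene symbol. A row of the table was taken for a gene when its annotation gave that symbol alone, and each of the 9 genes had 1 such probe set. In all, 16 rows named an Sprr gene: 13 named 1 gene, the 9 described here and 4 others (Sprr2g, Sprr2j-ps, Sprr2k and Sprr4), and 3 named several. The Sprr2 genes are closely similar in sequence, a probe of one may also bind transcripts of another, and the value of any single Sprr2 gene is uncertain for that reason.

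All mice were C57BL/6 females aged 7 to 9 weeks, with 3 arrays per group and 9 in all. Anisomycin, an inhibitor of ribosomal protein synthesis that also activates stress kinases, was put on both faces of the ear daily for 5 days, 10 µl per face of a 2 mg/ml solution in 99.5% ethanol. Imiquimod, an agonist of Toll-like receptor 7, was given daily for the same 5 days as 10 mg of a 5% cream on both faces of the ear. The labels do not describe the vehicle or how long it was applied, so ethanol and cream base are not controlled separately. The design gives n = 3 without saying that each array is a separate mouse, and if it is not, the p-values cover technical spread alone.

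Small proline-rich proteins are made by keratinocytes late in differentiation. Transglutaminases join them through glutamine and lysine residues to loricrin, involucrin and other proteins, which builds the cornified envelope, the insoluble shell of the outermost skin cells. The Sprr genes lie side by side in the epidermal differentiation complex, and several are known as stress and wound genes of the epidermis, while Sprr3 is best known from the lining of mouth and oesophagus.

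The stretches of DNA just before the transcription start are shown for 6 members that cover the 3 subfamilies. Among them are the Sprr2 members that differed most (Sprr2b) and least (Sprr2h) between the treatments. Sprr2e, the member that rose most with imiquimod, is shown as well. The stretches are the last 200 bases before the RefSeq start, read 5′ to 3′ on the gene's strand, from RefSeq on GRCm38.p6. Capitals mark 4 motifs searched on both strands: AP-1 (TGANTCA), the octamer (ATGCAAAT), ETS (GGAAGT) and the TATA box (TATAAA).
Sprr1a, chr3:92485882-92486081, minus strand: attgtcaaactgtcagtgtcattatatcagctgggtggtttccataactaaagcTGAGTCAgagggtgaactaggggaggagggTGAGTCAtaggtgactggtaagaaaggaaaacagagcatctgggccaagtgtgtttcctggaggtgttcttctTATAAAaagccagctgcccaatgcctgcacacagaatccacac
Sprr1b, chr3:92438780-92438979, minus strand: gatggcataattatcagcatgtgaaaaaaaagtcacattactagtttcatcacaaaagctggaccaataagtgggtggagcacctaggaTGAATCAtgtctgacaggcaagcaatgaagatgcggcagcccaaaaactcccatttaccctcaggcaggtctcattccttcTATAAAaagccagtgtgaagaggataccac
Sprr2b, chr3:92316505-92316704, plus strand: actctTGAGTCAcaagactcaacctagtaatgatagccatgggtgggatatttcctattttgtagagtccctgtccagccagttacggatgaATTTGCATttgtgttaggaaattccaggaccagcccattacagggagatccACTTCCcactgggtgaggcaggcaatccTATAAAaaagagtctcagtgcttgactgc
Sprr2e, chr3:92351943-92352142, plus strand: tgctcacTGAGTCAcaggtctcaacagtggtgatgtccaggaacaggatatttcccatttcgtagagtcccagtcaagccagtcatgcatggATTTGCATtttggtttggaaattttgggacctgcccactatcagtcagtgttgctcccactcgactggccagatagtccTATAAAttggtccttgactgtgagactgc
Sprr2h, chr3:92385485-92385684, plus strand: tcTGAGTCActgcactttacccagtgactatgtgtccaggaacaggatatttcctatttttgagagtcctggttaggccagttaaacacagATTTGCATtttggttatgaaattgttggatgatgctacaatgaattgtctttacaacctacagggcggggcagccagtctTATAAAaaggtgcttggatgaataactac
Sprr3, chr3:92458721-92458920, minus strand: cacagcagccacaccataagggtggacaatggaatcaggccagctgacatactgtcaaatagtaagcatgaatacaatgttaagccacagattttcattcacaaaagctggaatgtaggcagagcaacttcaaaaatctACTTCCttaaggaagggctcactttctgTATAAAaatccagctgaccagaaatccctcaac

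All 9 members were found among the RefSeq promoters, and all 9 held TATAAA in the 250 bases before the start, against 12.4% of the 32851 promoters. TGANTCA was found in 8 of 9, in every member except Sprr3, and in 6.75% of all promoters. The octamer was found in the 6 Sprr2 members alone, between 112 and 101 bases before the start, and in 1.60% of all promoters. In the Sprr2 members the AP-1 match, TGAGTCA, lay between 198 and 187 bases before the start, while Sprr1a held the same letters at 146 and at 116 and Sprr1b held TGAATCA at 111. GGAAGT was found in Sprr2b, at 57 to 52 bases before the start, and in Sprr3, against 19.7% of promoters. An antioxidant element (TGACNNNGC) was found in Sprr1a, where it overlaps an AP-1 match, and in Sprr2f, against 10.2% of promoters, and an interferon element in 0 of 9, against 2.98%. Over the 250 bases, Sprr2 members were identical at 61.6% to 89.6% of positions in pairwise alignments, the highest being Sprr2d with Sprr2e, and pairs with a member outside Sprr2 at 51.2% to 57.6%. The alignments allowed gaps and no unrelated promoters were aligned for comparison, so the lower range is not read as similarity. A match is a description of the letters and was not tested for binding.

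**Figure D1:**
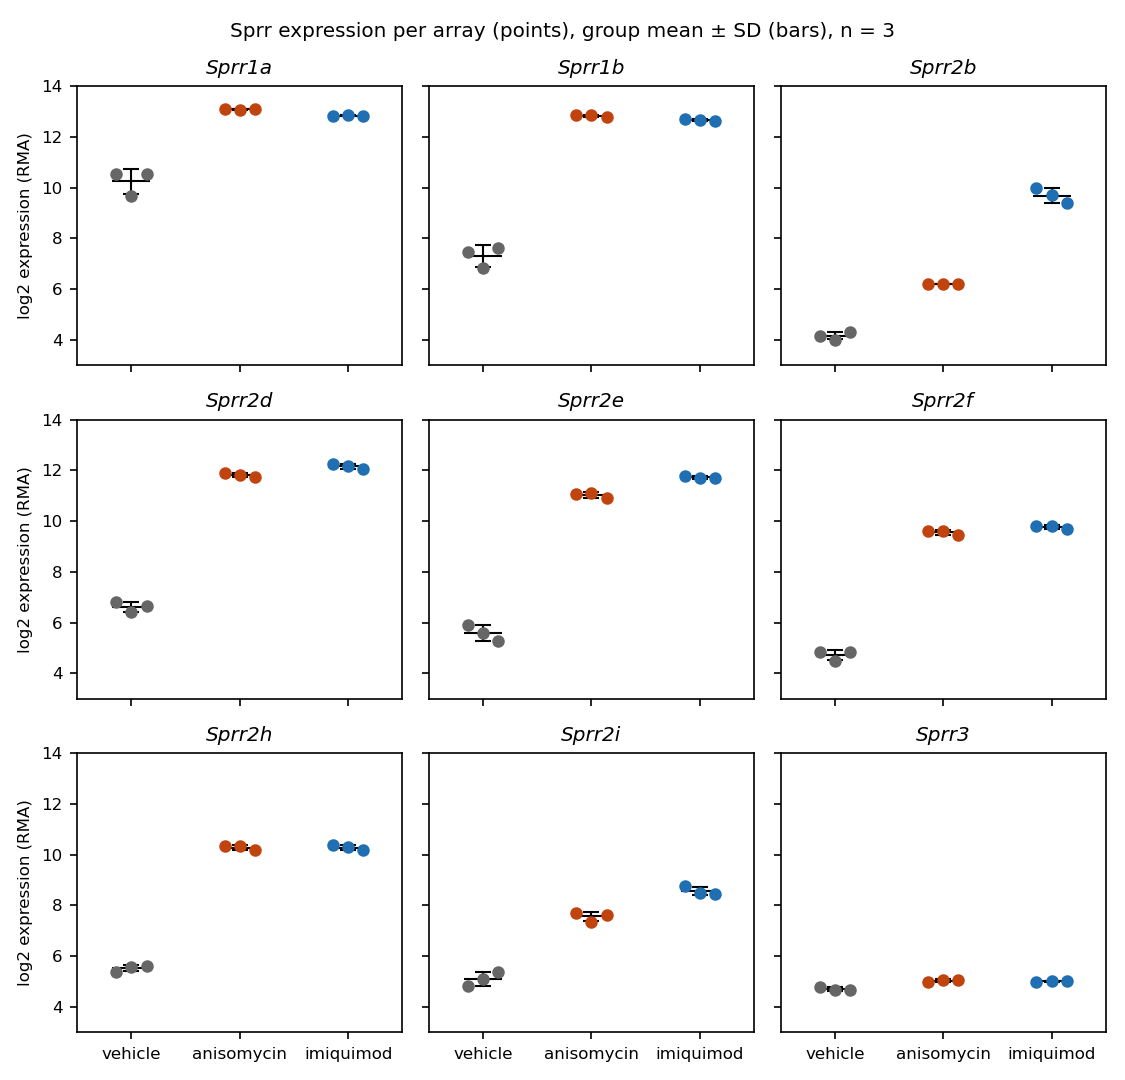
Log2 expression (y axis) of the 9 Sprr genes on each array (points), by treatment group (x axis), with the group mean and SD as bars (n = 3 arrays). All treated arrays lie above all vehicle arrays in every panel, and Sprr2b shows the widest gap between the treatments, 6.21 against 9.37 to 9.97.

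The probe sets of all members read higher in anisomycin ears than in vehicle ears, that of the dim Sprr3 by 0.33 only. All 9 members rose, with adjusted p from 7.27e-10 to 0.000688 by limma, where 45.6% of all genes tested were called, 22.3% higher and 23.3% lower. The median of their log2 fold changes was 4.75, against -0.01 over all genes tested. The 3 anisomycin arrays lay above the 3 vehicle arrays for each member, as they did for 24.9% of all genes, with 26.4% lying below. Whole tissue was measured, so more cells of a type and more RNA per cell cannot be told apart. Values are on a log2 scale, so a difference of 1 is a 2-fold change.

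Imiquimod ears gave the same count. All 9 members rose against vehicle, with adjusted p from 5.93e-10 to 0.00121 by limma, where 42.7% of genes were called, 20.4% higher and 22.4% lower. The median log2 fold change was 5.03, against -0.03 over all genes, and treated and vehicle arrays did not overlap for any member, with treated arrays all higher for 24.4% of all genes and all lower for 27.4%. The comparisons with vehicle share the vehicle arrays. Both treatments are set beside each other in the plot of changes against vehicle.

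**Figure D2:**
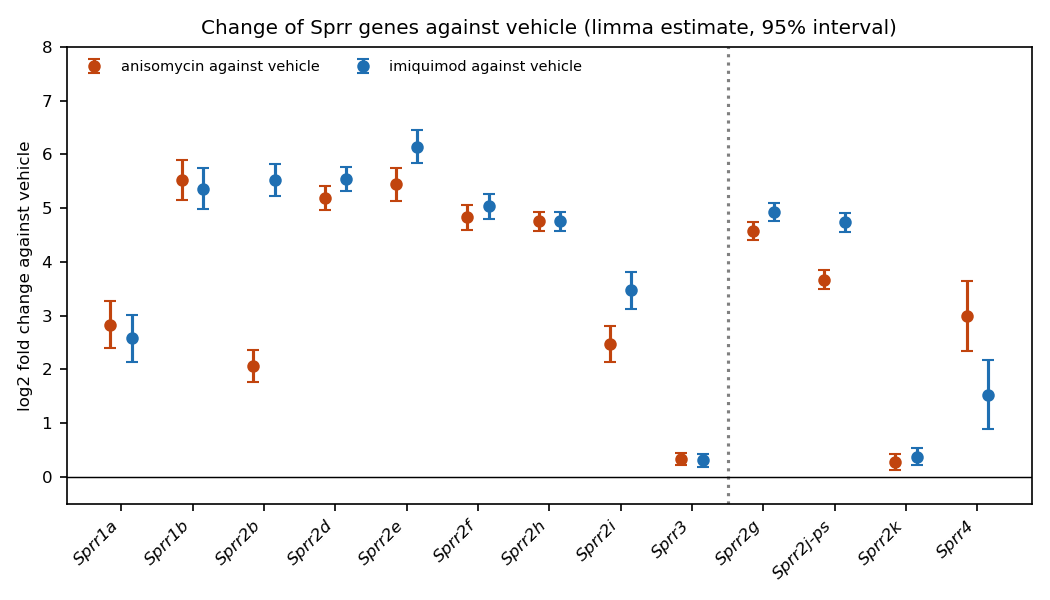
Log2 fold change against vehicle (y axis) for the 9 members and, right of the dotted line, the 4 other Sprr genes (x axis). Points are limma estimates from 3 arrays a group, and bars their 95% intervals. The estimates run from 0.33 for Sprr3 to 5.53 for Sprr1b with anisomycin and from 0.31 for Sprr3 to 6.15 for Sprr2e with imiquimod.

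Sprr1a and Sprr1b, the cross-bridging proteins of stressed and stratifying epithelia, moved by unequal amounts. Sprr1b had log2 values of 7.44, 6.83 and 7.63 in vehicle ears, 12.86, 12.85 and 12.77 after anisomycin and 12.71, 12.66 and 12.62 after imiquimod. Vehicle replicate 2 was the lowest array, and the treated arrays lay together far above it. Sprr1b rose by 5.53 with anisomycin (SE 0.17, 46.1-fold) and by 5.36 with imiquimod (SE 0.17, 41.1-fold). Sprr1a started high, at 10.54, 9.68 and 10.54 in vehicle ears, and reached 13.11, 13.05 and 13.08 after anisomycin and 12.82, 12.85 and 12.82 after imiquimod. Its rises were smaller, 2.83 with anisomycin (SE 0.19, 7.10-fold) and 2.58 with imiquimod (SE 0.19, 5.96-fold). The treated values of Sprr1a are near the top of the scale, where the highest value in the table is 13.97, and saturation of its probes was not tested.

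Among the Sprr2 genes, 4 members had large rises under both treatments. Sprr2e was measured at 5.90, 5.58 and 5.28 in vehicle ears, at 11.08, 11.12 and 10.90 after anisomycin and at 11.80, 11.69 and 11.71 after imiquimod. The 3 groups did not overlap, and imiquimod was the highest. Sprr2e rose by 5.44 with anisomycin (SE 0.14, 43.5-fold) and by 6.15 with imiquimod (SE 0.14, 70.8-fold), the seventh largest rise of all genes under imiquimod. Sprr2d was at 6.80, 6.41 and 6.65 in vehicle ears, 11.88, 11.81 and 11.73 after anisomycin and 12.25, 12.15 and 12.06 after imiquimod. Its groups were also separate, with rises of 5.19 (SE 0.098, 36.4-fold) and 5.54 (SE 0.098, 46.4-fold). Sprr2f gave 4.85, 4.49 and 4.85 in vehicle ears, 9.63, 9.61 and 9.44 after anisomycin and 9.79, 9.82 and 9.69 after imiquimod. The rises of Sprr2f were 4.83 (SE 0.10, 28.4-fold) and 5.03 (SE 0.10, 32.8-fold). Sprr2h gave 5.39, 5.58 and 5.61 in vehicle ears, 10.33, 10.34 and 10.17 after anisomycin and 10.37, 10.29 and 10.18 after imiquimod. Here the treated arrays overlapped, and the rises were 4.75 (SE 0.079) under each treatment, 27.0-fold.

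Sprr2b and Sprr2i responded unequally to the treatments. Sprr2b was at 4.17, 4.02 and 4.30 in vehicle ears and at 9.97, 9.71 and 9.37 after imiquimod, a rise of 5.53 (SE 0.13, 46.0-fold). After anisomycin it read 6.21 on all 3 arrays, a rise of 2.05 (SE 0.13, 4.15-fold). The deposited Sprr2b values of the 3 anisomycin arrays are equal to the last digit, so their SD of 0 is no measure of the spread between ears. Equal values on all 3 anisomycin arrays were found for 301 genes, 1.51% of those tested, and in each of these the shared value was the median of the 9 arrays. For Sprr2b that follows from the order of the groups, with anisomycin between vehicle and imiquimod. The cause of the equal values was not tested. Sprr2i was at 4.82, 5.09 and 5.39 in vehicle ears, 7.72, 7.36 and 7.63 after anisomycin and 8.75, 8.50 and 8.45 after imiquimod. The groups of Sprr2i were separate, with rises of 2.47 (SE 0.15, 5.53-fold) and 3.47 (SE 0.15, 11.1-fold).

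Sprr3 moved least. It was at 4.79, 4.68 and 4.67 in vehicle ears, 4.98, 5.07 and 5.07 after anisomycin and 4.99, 5.04 and 5.02 after imiquimod. The treated arrays were higher, and the rises were 0.33 (SE 0.053, 1.26-fold) and 0.31 (SE 0.053, 1.24-fold). By its mean over the 9 arrays Sprr3 was among the dimmest 30% of genes, those below 5.29. The vehicle means of Sprr2b, Sprr2f and Sprr2i were also below 5.29, at 4.16, 4.73 and 5.10, and signal over background was not tested.

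Set directly against each other, the treatments differed for some Sprr2 members and in 1 direction. Of the 9 members, 4 were lower with anisomycin than with imiquimod by limma and 5 were not called, where 20.4% of all genes were called, 10.8% higher and 9.59% lower. Sprr2b was lower by far, with a log2 difference of -3.47 (SE 0.13, adjusted p = 1.11e-06), which is 11.1-fold, and ranked 19936 of 19938 genes ordered from the largest rise to the largest fall. The equal anisomycin values stand behind this difference, its SE and its p-value too. A row listing 4 symbols, Sprr2b among them, differed by only -0.06 between the treatments, with treated values near the top of the scale. It is described further below. Sprr2i differed by -1.001 (SE 0.15, adjusted p = 0.00232) and Sprr2e by -0.70 (SE 0.14, adjusted p = 0.00696), 2.00-fold and 1.63-fold lower. Sprr2d differed by -0.35 (SE 0.098, adjusted p = 0.0335), and this call was lost in 9 of 20 alternative analyses, among them those without any 1 of the 3 anisomycin or 3 imiquimod arrays or without vehicle replicate 3, with adjusted p up to 0.119. The 3 anisomycin arrays lay below the 3 imiquimod arrays for these 4 genes and for Sprr2f, as they did for 17.9% of all genes, and above them for Sprr1a and Sprr1b, as for 21.4% of all genes.

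**Figure D3:**
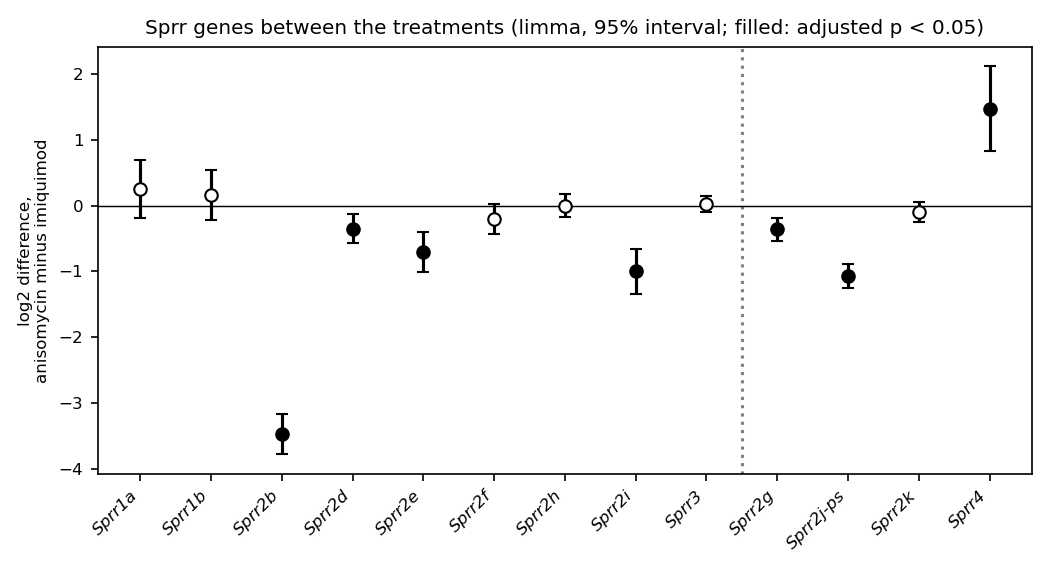
Log2 difference of anisomycin minus imiquimod (y axis) for the 9 members and, right of the dotted line, the 4 other Sprr genes (x axis), as limma estimates with 95% intervals from 3 arrays a group. Filled points passed an adjusted p under 0.05. Sprr2b stands lowest at -3.47, and Sprr4 is the only filled point above 0, at 1.47.

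For 5 members no difference between the treatments was called, which does not show that the treatments act alike on them. Sprr2h differed by -0.0014, with a 95% interval of -0.18 to 0.18, and Sprr3 by 0.02, with an interval of -0.10 to 0.14. Sprr2f differed by -0.21 (interval -0.44 to 0.02, adjusted p = 0.199), and was called lower with array weights and without vehicle replicate 2, at adjusted p = 0.0337 and 0.0461. Sprr1a differed by 0.25 (interval -0.18 to 0.69, adjusted p = 0.433) and Sprr1b by 0.16 (interval -0.21 to 0.54, adjusted p = 0.576). The test pools the spread of the 3 groups, and the vehicle arrays varied most, with an SD of 0.49 for Sprr1a in vehicle against 0.029 and 0.017 in the treated groups. Fitted on the 2 treated groups alone, Sprr1a and Sprr1b were called higher with anisomycin, at adjusted p = 0.00756 and 0.0467, and Sprr1a also without vehicle replicate 2, at adjusted p = 0.00401.

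The 4 other Sprr genes were also higher with each treatment, as were 22.3% of all genes with anisomycin and 20.4% with imiquimod. Sprr2g and Sprr2j-ps, which RefSeq lists as transcribed pseudogenes, rose by 4.57 (SE 0.075) and 3.67 (SE 0.078) with anisomycin and by 4.93 and 4.74 with imiquimod, and both were lower with anisomycin than with imiquimod, by -0.36 (adjusted p = 0.00936) and -1.07 (adjusted p = 6.92e-05). Sprr2k rose by 0.28 and 0.37 (SE 0.068). Sprr4 went the other way. It rose by 2.99 with anisomycin and by 1.53 with imiquimod (SE 0.29), a difference between the treatments of 1.47 (adjusted p = 0.00741). Over all 13 Sprr genes, 6 were lower with anisomycin than with imiquimod, 1 was higher and 6 were not called. Over all genes tested, 9.59% were lower and 10.8% higher.

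RefSeq places 50 tested genes from S100a9 to S100a11, and the 13 Sprr genes are consecutive among them. Of the other 37 genes, 19 rose and 3 fell with anisomycin, with a median of 0.57, and 20 rose and 2 fell with imiquimod, with a median of 0.51. Rises were thus more frequent among these neighbours than among all genes, where 22.3% rose and 23.3% fell with anisomycin. With imiquimod 20.4% of all genes rose and 22.4% fell. The medians of the 13 Sprr genes were 3.67 and 4.75. Of the 3 tested genes next to the block on the Sprr2b side, Lelp1 (-0.08 and -0.05) and Prr9 (-0.43 and -0.10) were not called, and loricrin (Lor), the main protein of the envelope, fell by 1.27 with anisomycin (adjusted p = 0.00231) and stood at -0.36 with imiquimod (not called, though called lower when only the 2 groups were fitted and without anisomycin replicate 1). On the Sprr4 side, involucrin (Ivl), an early envelope scaffold protein, rose by 2.17 and 2.24 (SE 0.21). Smcp stood at -0.13 with anisomycin and fell by 0.17 with imiquimod, and Lce6a stood at 0.21 with anisomycin and rose by 1.02 with imiquimod.

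**Figure D4:**
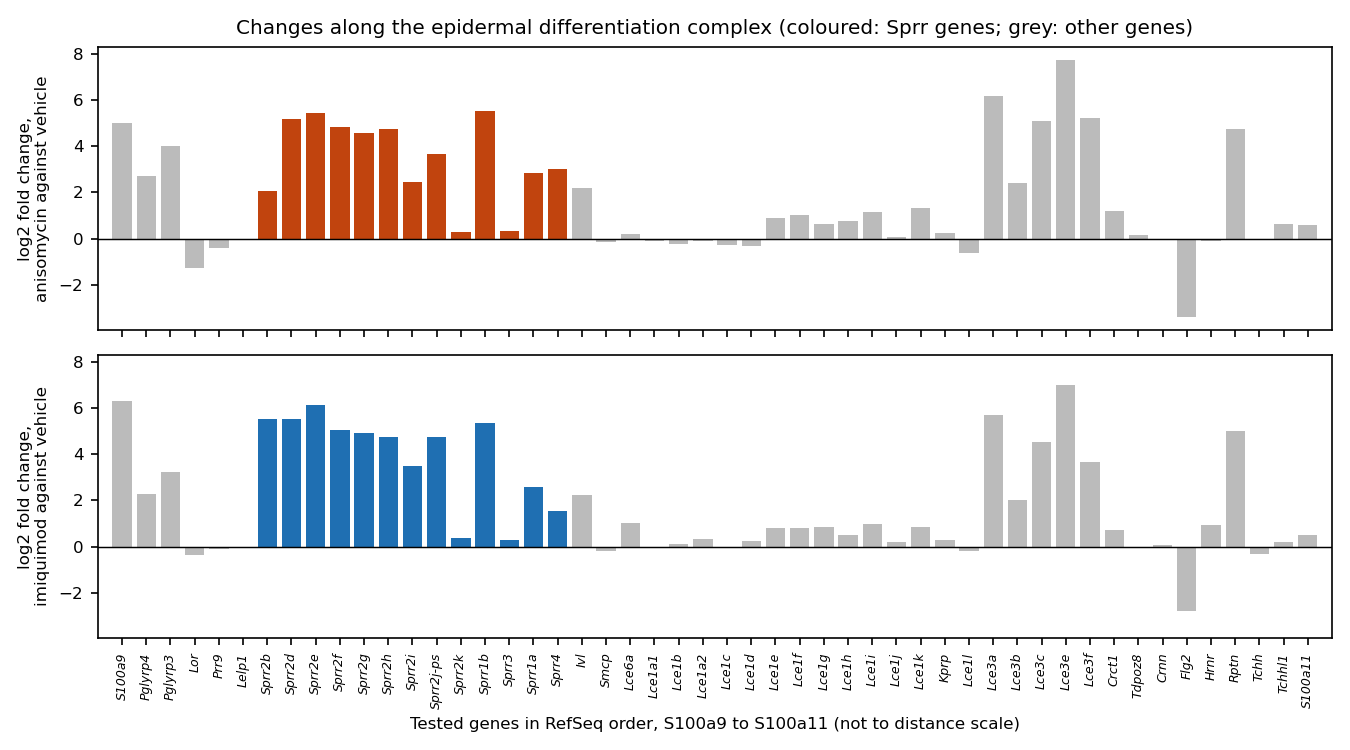
Log2 fold change against vehicle (y axes) with anisomycin (upper panel) and imiquimod (lower panel) for the 50 tested genes between S100a9 and S100a11, in RefSeq order and not to distance (x axis). Coloured bars are the 13 Sprr genes, with medians of 3.67 and 4.75, and grey bars the other 37 genes, with medians of 0.57 and 0.51.

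Of 16 measured genes listed for the cornified envelope, 8 rose and 3 fell with anisomycin and 8 rose and 1 fell with imiquimod. Of all genes, 22.3% rose and 23.3% fell with anisomycin, and 20.4% rose and 22.4% fell with imiquimod. The medians of the 16 genes were 0.28 and 0.25. Repetin (Rptn), a transglutaminase substrate of the same complex, rose by 4.73 and 4.99 (SE 0.17), while filaggrin 2 (Flg2) fell by 3.39 with anisomycin and by 2.80 with imiquimod (SE 0.38). Of 19 late cornified envelope genes, 11 rose and 1 fell with anisomycin and 12 rose with imiquimod, with medians of 0.74 and 0.82. The Lce3 genes led, with Lce3e at 7.73 and 6.99 (SE 0.11) and Lce3a at 6.17 and 5.68 (SE 0.10). Similar copies among the Lce3 genes may also share signal, which was not tested.

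The transglutaminase family, whose epidermal members cross-link Sprr proteins, moved in part. Of 7 genes, 3 rose and 1 fell with anisomycin and 4 rose and 1 fell with imiquimod, with medians of 0.06 and 0.77. Among all genes tested, 22.3% rose and 23.3% fell with anisomycin, and 20.4% rose and 22.4% fell with imiquimod. With 7 genes these counts are not read as a result about the family. Tgm3 rose by 2.97 and 2.49 (SE 0.19) and Tgm1, the keratinocyte enzyme at the membrane, by 1.86 and 1.94 (SE 0.15). Tgm5, another epidermal enzyme, stood at 0.06 with anisomycin and rose by 1.12 with imiquimod (SE 0.14), a difference between the treatments of -1.05 (adjusted p = 0.00136). Tgm2, the tissue enzyme, rose by 1.58 and 0.77 (SE 0.16), a difference of 0.81 (adjusted p = 0.00837). Tgm7 fell by 0.87 under each treatment.

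Transcription factors known to act on Sprr genes or on terminal differentiation rose in most cases. Of 26 measured, 18 rose and 4 fell with anisomycin and 17 rose and 2 fell with imiquimod, with medians of 0.96 and 0.56. Over all genes tested, 22.3% rose and 23.3% fell with anisomycin, and 20.4% rose and 22.4% fell with imiquimod. Elf3, an epithelial ETS factor, rose by 4.52 with anisomycin and by 1.51 with imiquimod (SE 0.099), a difference of 3.01 (adjusted p = 3.64e-07). Its relative Ehf rose by 3.04 and 2.62 (SE 0.12). Of the AP-1 subunits, Fosl1 rose by 3.52 and 2.12 (SE 0.27), a difference of 1.41 (adjusted p = 0.00677), and Fos by 2.15 and 1.68 (SE 0.27). The octamer factor Pou2f3 fell by 1.67 with anisomycin (SE 0.27) and stood at -0.19 with imiquimod, a difference of -1.48 (adjusted p = 0.00529). Prdm1, a transcriptional repressor active in the granular layer, rose by 2.03 and 1.02 (SE 0.16). Klf4, a factor needed for the skin barrier, rose by 0.38 with anisomycin and by 0.28 with imiquimod (SE 0.087), the second of these a call lost in 8 of 20 alternatives, among them repeated quantile normalization, those without vehicle replicate 2 and those without any 1 imiquimod array. Between the treatments, 11 of the 26 factors were higher with anisomycin, 3 were lower and 12 were not called. Over all genes tested, 10.8% were higher and 9.59% lower. The 3 lower factors were Pou2f3, Cebpa (-1.15) and Gata3 (-0.74).

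Markers of the ear's cell types were present, and some moved with the Sprr genes. For the counts that follow, 22.3% of all genes rose and 23.3% fell with anisomycin, and 20.4% rose and 22.4% fell with imiquimod. Of 8 basal keratinocyte markers, 3 rose and 3 fell with anisomycin and 4 rose and 3 fell with imiquimod, and their mean log2 level per array was 10.70 to 10.82 in vehicle ears, 10.53 to 10.58 after anisomycin and 10.36 to 10.47 after imiquimod. Their log2 fold changes ran from -2.46 to 0.80 with anisomycin (median 0.02) and from -2.54 to 0.67 with imiquimod (median 0.07). Krt15 was the lowest and Krt14 the highest under each treatment. The keratinocyte factor Trp63 stood at -0.11 and -0.05 and was not called. Of 6 suprabasal markers, 3 rose and 1 fell with anisomycin and 3 rose with imiquimod, and their mean level was 10.31 to 10.78, 10.55 to 11.12 and 11.29 to 11.34 in the 3 groups. Krt1 and Krt10 of that list were lower with anisomycin than with imiquimod, by -0.995 (adjusted p = 0.0172) and -0.62 (adjusted p = 0.0200). All 8 neutrophil markers rose with each treatment, with mean levels of 4.76 to 4.87, 8.17 to 8.59 and 8.76 to 8.89. Of 8 macrophage markers, 7 rose with anisomycin and 6 with imiquimod. All 8 muscle markers fell with each treatment, their mean level going from 9.68 to 10.37 in vehicle ears to 7.88 to 8.14 and 7.64 to 8.33, and 6 of 8 cartilage markers and 6 of 7 fat cell markers fell with each. Of 8 fibroblast markers, 6 fell and 1 rose with anisomycin and 7 fell with imiquimod, with mean levels of 10.61 to 10.82, 9.92 to 10.02 and 9.70 to 9.85. Of 8 hair follicle markers, 5 fell with anisomycin and 3 with imiquimod, with mean levels of 6.00 to 6.23, 5.50 to 5.65 and 5.62 to 6.05. Of 6 T cell markers, 1 rose and 2 fell with each treatment and 3 were not called. Counts near the shares of all genes are not read as a shift of a cell type. The part of the marker changes in the Sprr changes was not tested. Of 5 measured markers of the mouth and oesophagus, where Sprr3 is known, 2 rose with anisomycin and 1 with imiquimod, and their mean level was 4.90 to 5.05 in vehicle ears, 5.56 to 5.70 after anisomycin and 5.20 to 5.22 after imiquimod. The protease gene Tmprss11e rose by 2.74 and 0.71 (SE 0.12), Krt36 rose by 0.25 with anisomycin (adjusted p = 0.0291) and was not called with imiquimod, and the keratin genes Krt4, Krt13 and Krt76 were not called.

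The patterns of the members were compared by the root mean square difference over the 9 arrays of log2 values, each gene set to its own vehicle mean, which is a description without a test. Members were closest to each other for Sprr2f and Sprr2h (0.213) and for Sprr1b and Sprr2d (0.260). Outside the members, the gene nearest to Sprr1a was Tgm3 (0.147), followed by Ehf (0.157) and Cnfn (0.183), which encodes the envelope protein cornifelin. Sprr1b and Sprr2d had Krt6a and Klk13 nearest, a stress keratin and a kallikrein, at 0.271 and 0.312 for Sprr1b and at 0.379 and 0.348 for Sprr2d. Next came Saa3 for Sprr1b (0.431) and S100a9 for Sprr2d (0.459). Sprr2e was nearest to the calprotectin genes S100a9 (0.329) and S100a8 (0.369) and then to Klk13 (0.462). Sprr2f was nearest to Rptn (0.207), Sprr2g (0.219) and Cxcr2 (0.250), and Sprr2h to Sprr2g (0.165), Cxcr2 (0.195) and the connexin gene Gjb2 (0.269).

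The genes nearest to Sprr2b lay farther from it than was seen for any other member. They were the beta-defensin Defb3 (0.588), Serpinb3a (0.758) and the peroxidase Lpo (0.949). Their log2 fold changes were 2.99, 3.24 and 0.86 with anisomycin and 5.66, 5.07 and 4.46 with imiquimod. Sprr2i was nearest to Ifitm6 (0.310), Cstdc6 (0.369) and the hyaluronan synthase Has3 (0.394). Sprr3, with its small changes, was nearest to Scand1 (0.033), Prpf4 (0.036) and Prpf8 (0.037).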

How the data were processed

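The authors deposited 1 table of log2 expression values from Affymetrix Mouse Gene 1.0 ST arrays, made with RMA per the submitters' processing notes, a method that corrects background, quantile-normalizes and summarizes probes. The log2 scale is judged from the range of 2.39 to 13.97. No RMA version or genome build is given in the sources used here. In all, 35556 rows were deposited. A single symbol was given for 21789 of them, which alone were tested (the brightest probe set per gene), while 1621 list several symbols and 12146 no symbol.

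Genes were fitted with limma 3.58.1 in R 4.3.3, a mean per group over 9 arrays (6 residual and 3.16 prior degrees of freedom), two-sided, with Benjamini-Hochberg adjustment over 19938 genes and calls at 0.05. SE and 95% intervals are limma's. An exact permutation test of 3 against 3 cannot go below p = 0.1, and precision is limited by having 3 arrays a group. The fit was run on simulated data in which genes varied independently and few were changed. These data differ on both points, so the simulation does not measure the error of the calls here. Members and gene lists were chosen with earlier results of these data known. Besides the members, the rule for named genes took the 3 non-members nearest to each in pattern (no clone or predicted names, small RNAs or receptor segments), the 3 tested genes on each side of the Sprr block, up to 4 called genes per list and comparison by size, and Ivl, Lor, Tgm1, Tgm3, Fosl1 and Klf4. The text prints a part of these. The single marker genes and Pglyrp3 and Pglyrp4 fall outside it and were chosen after their values were seen. Promoters were aligned with Biopython 1.88. The 20 alternatives covered the variance prior, dim genes, scaling, probe sets, rows tested, weights, the replicate number, the groups fitted and each array in turn.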

Additional observations from a re-analysis of the deposited data

Results flagged for a closer look

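The 3 rows that list several Sprr2 symbols, which the comparisons above leave out, carried signal above the vehicle level. The row listing 4 symbols, Sprr2b among them, had means of 10.06 in vehicle ears (SD 0.41), 13.12 after anisomycin (SD 0.051) and 13.18 after imiquimod (SD 0.055), n = 3 arrays each. It was higher by 3.05 with anisomycin and by 3.11 with imiquimod. The treated values are near the highest in the table, 13.97, and saturation was not tested. The difference between the treatments was -0.06 for this row and -3.47 for the Sprr2b probe set. Which of them reflects Sprr2b transcripts was not tested. The 2 rows listing 2 symbols hold identical values on all 9 arrays and count as 1. They had means of 7.93 in vehicle ears (SD 0.39), 12.10 after anisomycin (SD 0.026) and 12.28 after imiquimod (SD 0.11), which is higher by 4.17 with anisomycin and by 4.34 with imiquimod.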

How the results depend on the processing

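Each of the 9 members stayed called and higher against vehicle in all 20 alternatives that tested it, for both treatments (19 for Sprr3, which the filter on the dimmest 30% of genes removes, leaving 8 called). Leaving out single arrays kept these counts at 9. Between the treatments the count of 4 became 3 to 6 when single arrays were left out, 3 after repeated quantile normalization or with all rows tested, 5 with array weights and 6 with only the 2 groups compared. The share of all genes called under each alternative is not given here, so these counts are not read as a result about the Sprr genes. Sprr2b (-3.63 to -3.33), Sprr2e (-0.75 to -0.62) and Sprr2i (-1.16 to -0.90) stayed called in all 20. For Sprr2b every alternative starts from the same deposited values, so none of them tests its equal anisomycin values. The difference of Sprr2h, which was near 0 and never called, changed sign to 0.01 with quantile normalization repeated and with arrays centred on their medians (0.011 and 0.013), to 0.030 with cyclic loess and to 0.058 with array weights. Leaving out single arrays it lay between -0.051 and 0.054. That of Sprr3 was -0.00086 with cyclic loess. The cause was not tested. With the replicate number as a replicate block, 9, 9 and 4 members were called, as without it. Same-numbered samples deviated with correlations of -0.20 to 0.20, and differently numbered ones with -0.24 to 0.25. The labels state no pairing, and with 3 arrays a group these values cannot decide whether the numbers pair the samples. Counts of list genes called lower were small and less stable: with imiquimod, 1 cornified envelope gene and 2 transcription factors were lower, and the alternatives gave 1 to 2 and 1 to 3. For late cornified envelope genes under anisomycin, 1 in the main analysis, they gave 0 to 5. Between the treatments, the 11 higher and 3 lower transcription factors became 7 to 15 and 2 to 5. Among transglutaminases, 1 was lower with each treatment, and the alternatives gave 0 to 2 and 0 to 1.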

Other observations

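Near the Sprr block, the peptidoglycan recognition genes Pglyrp3 and Pglyrp4, whose products bind bacterial walls, rose with both treatments, by 4.01 and 2.72 with anisomycin and by 3.23 and 2.28 with imiquimod. Pglyrp3 was higher with anisomycin than with imiquimod by 0.78. Tmprss11e, a serine protease gene, was higher with anisomycin than with imiquimod by 2.03 (adjusted p = 2.06e-05 by limma).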
